A study of Mus musculus with 8 samples.

Results

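The genes described here are 9 that act at the top of Ras signaling, namely the Ras-family GTPases *Nras*, *Hras*, *Mras*, *Rras* and *Rras2*, the phosphatase Shp2 (gene *Ptpn11*), the exchange factors *Sos1* and *Sos2*, and the scaffold *Shoc2*. They were taken by name, and every non-control probe whose accession mapped to one of them was kept. This gave 20 probes for 9 of the 19096 genes named on the array, and none of the 9 was missing. Gene expression had been profiled with 1-color Agilent arrays of the mouse transcriptome in 8 hearts of E18.5 mouse embryos, shortly before birth, 1 heart per array, with 4 WT and 4 SIRT1 KO hearts. SIRT1 is an NAD+-dependent protein deacetylase, and the comparison asks which transcripts differ between hearts that have and lack it. All embryos were C57BL/6 by the labels (C57BL/6J in the study's methods) and under a chow diet, with no treatment. The knockout is whole-body and germ-line, so every cell type of the heart and every other organ carries it from the zygote on.

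Ras proteins are small GTPases that switch on when an exchange factor such as Sos loads them with GTP and switch off when GTP is hydrolysed. Activated growth factor receptors recruit Sos through adaptor proteins, and Shp2 acts between the receptors and Ras as a positive regulator. GTP-bound Ras recruits Raf kinases, and a complex of Mras, Shoc2 and protein phosphatase 1 removes an inhibitory phosphate from Raf, after which MEK and ERK are phosphorylated in turn. Germ-line variants that raise the output of this pathway cause Noonan syndrome and related disorders, in which heart valve defects and thickening of the heart muscle are common. Much of the control lies in nucleotide loading and phosphorylation, which an array of transcripts does not measure.

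No probe of the 9 genes passed the test at an adjusted p of 0.05 (limma, Benjamini-Hochberg over 25615 tested probes), against 4.88% of all tested probes called in either direction and 0.91% called lower. The 3 most negative values of any member probe, from -0.30 to -0.40 on the log2 scale, were from *Mras*, whose remaining probe gave -0.18, and 2 *Mras* probes had all 4 SIRT1 KO hearts below all 4 WT hearts. The same separation was seen on 1 *Nras* and 1 *Ptpn11* probe, and over the whole array on 5.09% of probes. A *Sos1* probe was separated in the other direction, with a difference of 0.25, as were 8.64% of probes over the whole array. These separations changed with the scaling of the arrays, as given below. *Hras*, *Rras*, *Rras2*, *Sos2* and *Shoc2* had overlapping WT and SIRT1 KO hearts on every probe.

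The sequences just before the annotated starts of the 4 genes with a separated probe are shown here because these are the members in which the 2 genotypes did not overlap. All 9 members had such a window in the table used, 12 windows in all. Each is the 250 bases before the start, from RefSeq on the GRCm38.p6 build, read 5′ to 3′ on the strand of the gene. Capitals mark matches, on either strand, to the GC box written GGGCGG, the CCAAT box written as in its name, the TATA box written TATAAA, the E-box written CACGTG, the ETS factor core written CCGGAA, and the forkhead factor core written GTAAACA. *Mras* is at chr9:99436713-99436962 on the minus strand, *Nras* at chr3:103058035-103058284 on the plus strand, *Ptpn11* at chr5:121191398-121191647 on the minus strand and *Sos1* at chr17:80480454-80480703 on the minus strand.
Mras: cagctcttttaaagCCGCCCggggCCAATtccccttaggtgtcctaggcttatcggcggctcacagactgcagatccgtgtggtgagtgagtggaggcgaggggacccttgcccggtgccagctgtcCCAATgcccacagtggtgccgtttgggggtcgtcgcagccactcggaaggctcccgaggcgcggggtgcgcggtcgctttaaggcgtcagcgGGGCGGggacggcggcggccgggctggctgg
Nras: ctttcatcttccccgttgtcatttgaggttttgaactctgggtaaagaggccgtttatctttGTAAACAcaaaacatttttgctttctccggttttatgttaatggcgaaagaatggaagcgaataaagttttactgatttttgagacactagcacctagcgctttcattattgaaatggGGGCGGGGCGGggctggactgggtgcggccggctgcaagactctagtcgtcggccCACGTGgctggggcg
Ptpn11: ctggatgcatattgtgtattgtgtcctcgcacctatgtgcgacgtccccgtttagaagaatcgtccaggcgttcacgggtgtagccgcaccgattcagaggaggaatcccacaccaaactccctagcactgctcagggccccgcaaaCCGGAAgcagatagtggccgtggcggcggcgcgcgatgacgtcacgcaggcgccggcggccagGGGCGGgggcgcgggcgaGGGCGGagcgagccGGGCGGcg
Sos1: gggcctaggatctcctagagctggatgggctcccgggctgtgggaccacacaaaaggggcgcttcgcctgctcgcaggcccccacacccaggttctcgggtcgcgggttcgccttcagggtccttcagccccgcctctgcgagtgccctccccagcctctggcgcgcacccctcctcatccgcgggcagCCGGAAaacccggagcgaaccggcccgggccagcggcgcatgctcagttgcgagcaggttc

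*Mras* held 2 GC boxes and 2 CCAAT boxes. *Nras* held 2 GC boxes that share 1 base, 1 E-box and 1 forkhead core. *Ptpn11* held 3 GC boxes and 1 ETS core, and *Sos1* held 1 ETS core and none of the other 5 motifs. Of 32851 such windows for all genes, 32.7% held the GC box, 33.8% the CCAAT box, 12.4% the TATA box, 6.02% the E-box, 12.03% the ETS core and 3.17% the forkhead core. No motif was found in all 4 windows, and the TATA box was found in none of them. The windows were rich in G and C for *Mras* (68.4%), *Ptpn11* (66.8%) and *Sos1* (70.4%), and less so for *Nras* (48.4%), with a median of 52.4% over all windows. A match gives only the letters present and was not set against any measurement of factor binding.

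Values below are log2 of the background-subtracted intensity minus the 75th percentile of the same array, called the log2 scaled signal, so that 0 is the level of the 75th percentile and a difference of 1 is a 2-fold change. The scaled values compare hearts on 1 probe and do not compare genes or probes with each other. All 20 probes were tested and 19 were well above background on all 8 arrays. The exception, the brightest *Rras2* probe, had its spot in WT replicate 4 marked as an outlier by the scanner software, and its difference was fitted on the other 7 arrays. The arrays' 75th percentiles ran from 939 to 1033 in WT and from 777 to 906 in SIRT1 KO hearts, and the genotypes were on different slides, so slide, scan and genotype cannot be told apart. Nothing in the labels says whether hearts of a group came from separate litters, so the p-values measure the spread between these 8 hearts.

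The genotypes were taken from the labels, and the *Sirt1* probes did not follow them. The log2 scaled signal of A_51_P141152 ran from -0.27 to -0.12 in WT and from -0.52 to -0.02 in SIRT1 KO hearts, and that of A_52_P358612 from -0.14 to 0.32 in WT and from 0.43 to 0.75 in SIRT1 KO hearts. The second was 0.54 ± 0.11 (SE) higher in the hearts labelled SIRT1 KO (limma adjusted p = 0.0323). Where these probes lie relative to the deleted sequence is not given in the sources used here, and every direction below rests on the labels. The tissue label fitted its markers, since all 6 cardiomyocyte genes on the list were well above background on all 8 arrays. Their summed scaled signal was 973 to 1080 in WT and 1066 to 1242 in SIRT1 KO hearts. Sums over 6 endothelial genes ran from 37.3 to 43.1 in WT and from 32.9 to 39.6 in SIRT1 KO hearts, and those over 5 liver genes from 3.46 to 11.2 and from 4.13 to 49.1. In these bulk hearts fewer cells of a type and less RNA per cell cannot be told apart.

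**Figure D1:**
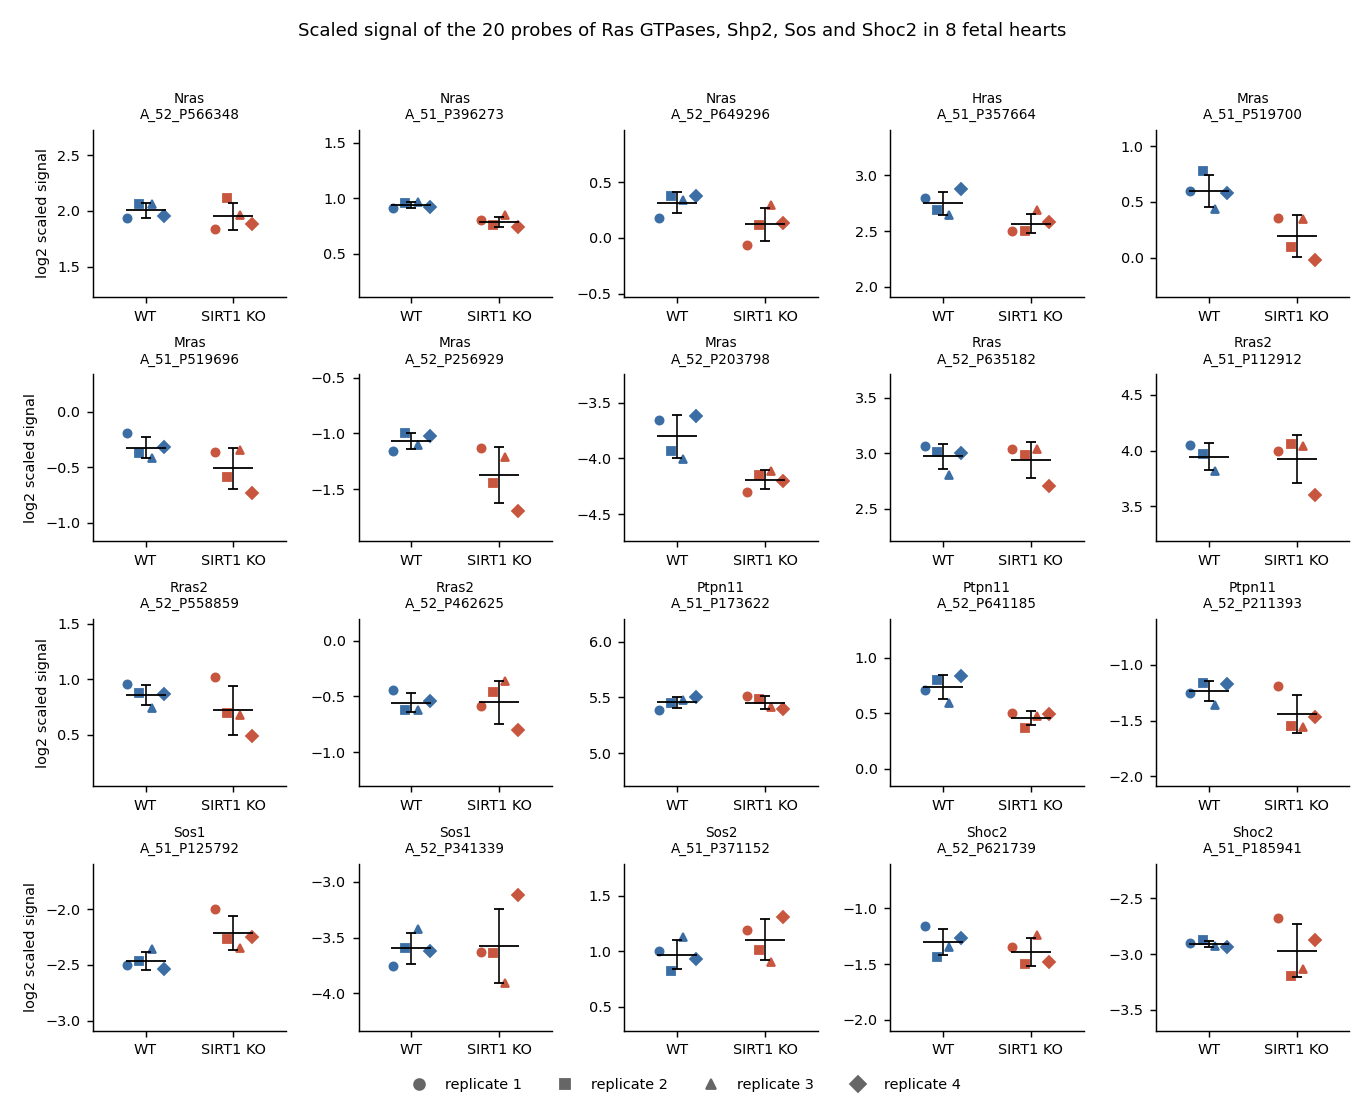
Log2 scaled signal (vertical axis, 1.5 log2 units in every panel) of each of the 20 probes in 4 WT (blue) and 4 SIRT1 KO (red) hearts. A symbol is 1 heart, the horizontal bar the mean and the error bar the SD. The red symbols all lie below the blue ones for Nras A_51_P396273, Mras A_51_P519700 and A_52_P203798 and Ptpn11 A_52_P641185, and all above them for Sos1 A_51_P125792.

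*Mras* encodes the muscle Ras protein that joins Shoc2 and protein phosphatase 1. On its brightest probe, A_51_P519700, the WT hearts read 0.60, 0.78, 0.43 and 0.58, and the SIRT1 KO hearts 0.36, 0.10, 0.35 and -0.02. All SIRT1 KO hearts were below the lowest WT heart, with replicates 2 and 4 lowest. The difference was -0.40 ± 0.11 (SE, n = 4 and 4), a ratio of 0.756, with a limma adjusted p of 0.0816 and an exact two-sided permutation p of 0.0286, the smallest that 4 against 4 hearts can give. The dimmest probe, A_52_P203798, read -3.65, -3.93, -4.00 and -3.62 in WT hearts and -4.30, -4.15, -4.11 and -4.20 in SIRT1 KO hearts. The ranges again did not overlap, but here SIRT1 KO replicate 1 was the lowest heart. The difference was -0.39 ± 0.10 (SE), with the lowest adjusted p of all member probes (limma, 0.0719).

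The other *Mras* probes gave smaller or less even differences. A_52_P256929 read -1.16, -0.996, -1.10 and -1.03 in WT hearts and -1.13, -1.44, -1.21 and -1.70 in SIRT1 KO hearts. SIRT1 KO replicate 1 lay inside the WT range and the other 3 below it, with a difference of -0.30 ± 0.12 (SE, limma adjusted p = 0.200). A_51_P519696 read -0.20, -0.37, -0.41 and -0.32 in WT hearts and -0.37, -0.59, -0.35 and -0.73 in SIRT1 KO hearts. Replicates 2 and 4 of the SIRT1 KO group were below all WT hearts and replicates 1 and 3 were not, giving -0.18 ± 0.10 (SE, limma adjusted p = 0.340). Without SIRT1 KO replicate 4 the difference was -0.19 on A_52_P256929, -0.33 on A_51_P519700 and -0.11 on A_51_P519696, and it stayed under 0 on all 4 probes. Over all arrays, 35 of the 217 named genes with 4 tested probes had every probe lower in SIRT1 KO hearts (16.1%), as *Mras* did. The probes measure the same RNA and are not separate replicates.

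**Figure D2:**
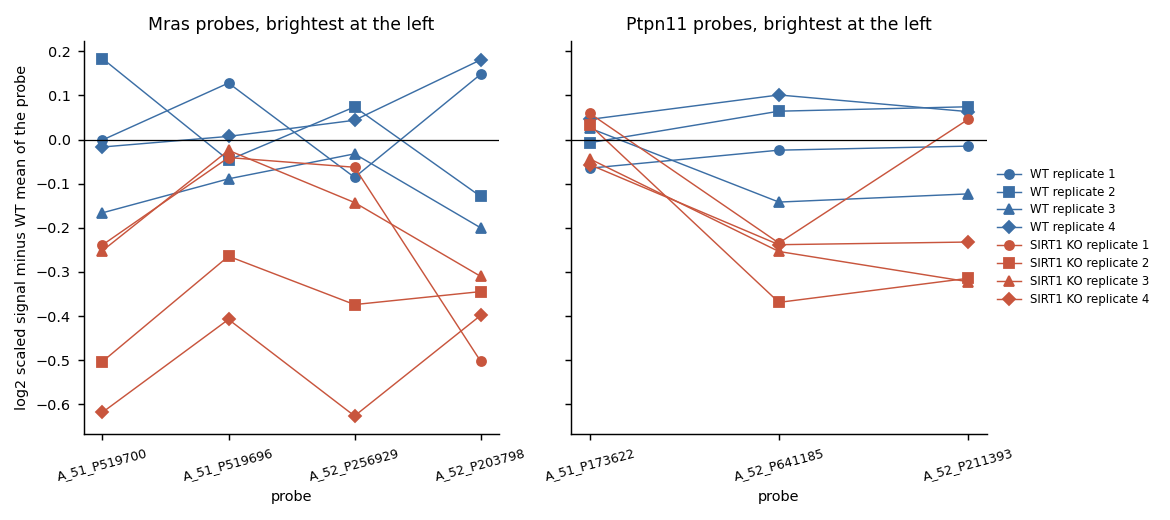
Log2 scaled signal of each heart minus the WT mean of the same probe (vertical axis), for the 4 Mras probes (left) and the 3 Ptpn11 probes (right), ordered from brightest to dimmest along the horizontal axis. Each line is 1 heart. On Mras, SIRT1 KO replicates 2 and 4 were below all WT hearts on every probe, while on Ptpn11 the hearts lay together on the brightest probe and apart on the second.

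The 5 named genes whose brightest probe followed that of *Mras* most closely over the 8 arrays, of 13535 compared, were *Crip1* (Pearson r = 0.978), *S100a10* (0.975), *A930006K02Rik* (0.971), *Pfdn1* (0.970) and *Septin6* (0.970). S100a10 is a calcium-binding protein family member that partners annexin A2, Pfdn1 a prefoldin chaperone subunit and Septin6 a filament-forming GTPase. These are descriptions over 8 arrays that share their scaling and the difference between genotypes. The differences of these 5 genes were -0.21 ± 0.08 (SE), -0.28 ± 0.07, -0.30 ± 0.09, -0.42 ± 0.11 and -0.24 ± 0.09, in the same order, and their limma adjusted p ran from 0.0692 to 0.186.

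*Nras* and *Hras* encode classical Ras proteins, which differ mainly in their C-terminal membrane anchors. On the middle of its 3 probes by brightness, A_51_P396273, *Nras* read 0.92, 0.95, 0.97 and 0.92 in WT hearts and 0.80, 0.76, 0.85 and 0.74 in SIRT1 KO hearts. The genotypes did not overlap and the hearts within each were close together, with a difference of -0.15 ± 0.06 (SE, limma adjusted p = 0.203). The brightest probe, A_52_P566348, read 1.94, 2.06, 2.06 and 1.95 in WT hearts and 1.84, 2.11, 1.97 and 1.88 in SIRT1 KO hearts. The highest of all 8 hearts there was SIRT1 KO replicate 2, and the difference was -0.05 ± 0.08 (SE, limma adjusted p = 0.746), from -0.11 without that heart to -0.016 without SIRT1 KO replicate 1. The dimmest, A_52_P649296, gave -0.20 ± 0.09 (SE, limma adjusted p = 0.264), with 3 of 4 SIRT1 KO hearts below the WT range of 0.18 to 0.37. *Hras*, on its only probe, read 2.79, 2.69, 2.64 and 2.87 in WT hearts and 2.50, 2.50, 2.69 and 2.58 in SIRT1 KO hearts. SIRT1 KO replicate 3 lay inside the WT range and the other 3 below it, with a difference of -0.18 ± 0.08 (SE, limma adjusted p = 0.237).

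*Rras* and *Rras2* encode Ras-related GTPases that are linked to cell adhesion and to phosphoinositide 3-kinase. *Rras* read 3.07, 3.01, 2.81 and 3.01 in WT hearts and 3.04, 2.99, 3.04 and 2.70 in SIRT1 KO hearts. In all, 3 of the SIRT1 KO hearts were within the WT range and replicate 4 was below it, and the difference was -0.03 (95% confidence interval -0.26 to 0.20). The brightest *Rras2* probe, A_51_P112912, read 4.05, 3.97 and 3.81 in 3 WT hearts and 4.00, 4.06, 4.04 and 3.60 in SIRT1 KO hearts, again with replicate 4 alone below the WT range. Its difference was -0.02 (95% confidence interval -0.32 to 0.28, n = 3 and 4). The other *Rras2* probes gave -0.14 (-0.40 to 0.12, and from -0.24 without SIRT1 KO replicate 1 to -0.063 without replicate 4) on A_52_P558859 and 0.0012 (-0.23 to 0.24) on A_52_P462625, and SIRT1 KO replicate 4 was the lowest of all hearts on both.

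Whether 1 GTPase differed by another amount than another was tested per heart, as the difference between the brightest probes of 2 genes, over the 10 possible combinations of the 5 GTPases. *Mras* relative to *Rras* was 0.37 lower in SIRT1 KO than in WT hearts on the log2 scale and *Mras* relative to *Rras2* 0.39 lower, each with an exact permutation p of 0.0286 and 0.143 after Benjamini-Hochberg adjustment. These 2 were the only combinations with an unadjusted p under 0.05, and no combination passed after adjustment. An exact p of 0.0286 is the smallest that these group sizes can give. With only 2 combinations at it, adjustment over 10 could not bring any under 0.05, so the adjusted values decide nothing. *Rras* relative to *Rras2* differed by 0.00094 between the genotypes.

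Shp2, the product of *Ptpn11*, is a tyrosine phosphatase with SH2 domains. Its 3 probes did not give 1 answer. The brightest, A_51_P173622, read 5.39, 5.45, 5.48 and 5.50 in WT hearts and 5.51, 5.49, 5.41 and 5.40 in SIRT1 KO hearts, and no SIRT1 KO heart was below the WT range. The difference was -0.0020 (95% confidence interval -0.15 to 0.15). On A_52_P641185 the WT hearts read 0.71, 0.80, 0.59 and 0.83 and the SIRT1 KO hearts 0.50, 0.36, 0.48 and 0.49, so that all SIRT1 KO hearts were lower. The difference there was -0.27 ± 0.08 (SE, ratio 0.827, limma adjusted p = 0.0862). On A_52_P211393, which carries another RefSeq transcript accession of the gene (NM_001109992 in place of NM_011202), 3 of 4 SIRT1 KO hearts were below the WT range of -1.36 to -1.16, with a difference of -0.21 ± 0.10 (SE, limma adjusted p = 0.270). Per heart, the second probe minus the brightest was -4.72 ± 0.11 (SD, n = 4) in WT and -4.99 ± 0.10 in SIRT1 KO hearts. The gap between the genotypes was -0.27, with an exact permutation p of 0.0286 and 0.243 after adjustment over the 17 such combinations of probes of 1 gene. The one other combination with an unadjusted p under 0.05 was *Mras* A_51_P519696 minus A_51_P519700, with a gap of 0.22 and the same p before and after adjustment. An exact p of 0.0286 is the smallest that 4 against 4 hearts can give. With only 2 combinations at it, adjustment over 17 could not bring any under 0.05.

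*Sos1* and *Sos2* encode the exchange factors that load Ras with GTP at activated receptors. On A_51_P125792 *Sos1* read -2.50, -2.47, -2.36 and -2.54 in WT hearts and -1.995, -2.27, -2.35 and -2.25 in SIRT1 KO hearts. All SIRT1 KO hearts were above all WT hearts, though SIRT1 KO replicate 3 and WT replicate 3 were next to each other. The difference was 0.25 ± 0.09 (SE, ratio 1.19, limma adjusted p = 0.163). The dimmer *Sos1* probe, A_52_P341339, ran from -3.76 to -3.42 in WT and from -3.91 to -3.11 in SIRT1 KO hearts, with a difference of 0.02 ± 0.16 (SE), so the first probe's separation was not seen on it. *Sos2* read 1.01, 0.82, 1.12 and 0.93 in WT hearts and 1.19, 1.01, 0.90 and 1.31 in SIRT1 KO hearts. SIRT1 KO replicates 1 and 4 were above the WT range, and the difference was 0.13 ± 0.11 (SE, limma adjusted p = 0.515). Without SIRT1 KO replicate 4 it was 0.064.

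*Shoc2* encodes a leucine-rich repeat scaffold. Its brighter probe, A_52_P621739, read -1.16, -1.43, -1.35 and -1.27 in WT hearts and -1.35, -1.50, -1.24 and -1.48 in SIRT1 KO hearts. The ranges overlapped, with a difference of -0.09 ± 0.09 (SE, limma adjusted p = 0.611), from -0.14 without SIRT1 KO replicate 3 to -0.040 without WT replicate 1. The other probe, A_51_P185941, was -2.91 ± 0.03 (SD, n = 4) in WT and -2.97 ± 0.24 in SIRT1 KO hearts, where 2 hearts lay above the WT range and 2 below it.

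**Figure D3:**
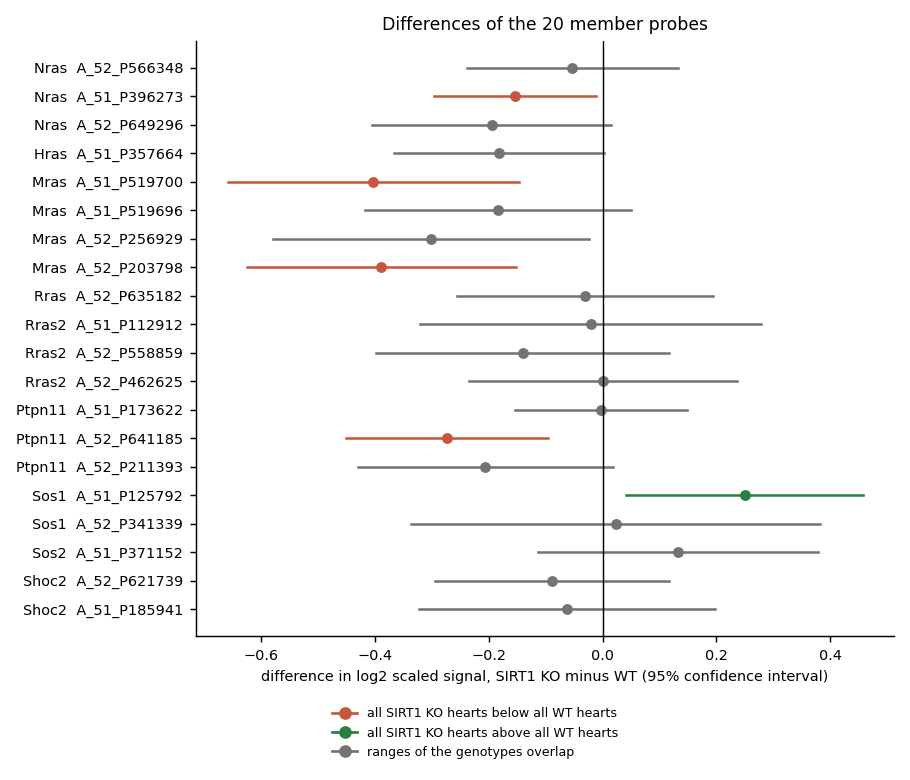
Fitted difference in log2 scaled signal, SIRT1 KO minus WT (horizontal axis), for the 20 member probes, with 95% confidence intervals as bars. Red and green mark the probes in which the genotypes did not overlap. The 4 Mras probes lie between -0.40 and -0.18, Sos1 A_51_P125792 lies at 0.25, and no probe passed the test after adjustment.

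Over the 20 probes, 16 had a fitted difference below 0, against 48.3% of all tested probes, and the median was -0.11 against 0.01. Under the 5 other scalings or background corrections 15 to 19 of the 20 were below 0, and 14 to 17 were below the median of all tested probes. On the brightest probe of each gene, which gives *Mras* 1 value in place of 4, 7 of the 9 were below 0 and the median was -0.03. The share below 0 over the brightest probes of all genes is not given here, and the 48.3% is over all probes. Brighter probes ran lower over the whole array, with 36.4% below 0 among the dimmest probes by mean signal, 50.1% in the middle and 58.4% among the brightest (equal groups of 8538 or 8539). Of the member probes 2 of 3, 6 of 8 and 8 of 9 were below 0 in these groups. An unadjusted p under 0.05 was reached by 6 of 20 probes, 5 lower and 1 higher, against 21.5% of all tested probes. Of the 19 probes with a value in every heart, 4 had all SIRT1 KO hearts below all WT hearts, against 5.09% of all such probes, and 1 had them all above, against 8.64%. Those 4 probes come from 3 genes. The hearts did not share the difference equally. The median difference from the WT mean over these 19 probes was -0.04, -0.20, -0.07 and -0.20 in SIRT1 KO replicates 1 to 4. The summed liver markers in the same hearts were 49.1, 6.39, 4.13 and 23.7. The endothelial sums were 36.5, 34.6, 32.9 and 39.6. The cardiomyocyte sums were 1242, 1075, 1211 and 1066, and the smooth muscle sums 179, 157, 171 and 123. Those of the fibroblast and epicardial list were 159, 170, 150 and 144. The macrophage and leukocyte sums were 1.51, 2.10, 2.65 and 2.10, and the erythroid sums 7.19, 5.39, 5.76 and 4.75. The cardiomyocyte, smooth muscle and erythroid sums were lower in replicates 2 and 4 than in 1 and 3, as the member medians were. The other sums given here were not. The part of any of these lists in the result was not tested.

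The size of the differences depended on how the arrays were scaled. Scaling on each array's median moved the median of all tested probes to -0.12, and no scaling moved it to -0.21. The member median was -0.25 and -0.33 under these settings, and in both it lay 0.12 under the median of all probes, as in the 75th percentile scaling. These 3 scalings differ only by a constant on each array, so that distance is the same in all of them by construction. Median scaling called 3 member probes lower, namely *Mras* A_51_P519700 and A_52_P203798 and *Ptpn11* A_52_P641185, against 4.79% of all tested probes called lower in that setting. Without scaling 10 were called lower, against 22.3% of all tested probes. Quantile normalization and cyclic loess each called 1, *Mras* A_52_P203798, with differences of -0.54 (limma adjusted p = 0.0271) and -0.52 (0.0401), against 1.48% and 1.24% of all tested probes called lower. On that probe normexp background correction of the median signal gave -0.09 (0.507). That correction adds an offset of 50, which narrows log2 differences most on dim probes such as this one. The member probes with all SIRT1 KO hearts below all WT hearts numbered 4 under quantile normalization and under cyclic loess, the same 4 as with the 75th percentile, 9 with median scaling, 10 without scaling and 2 with normexp, where they were *Hras* and *Ptpn11* A_52_P641185 and no *Mras* or *Nras* probe. The share of all probes with this separation was 7.03%, 6.05%, 15.2%, 28.8% and 4.55% in that order. No member probe had all SIRT1 KO hearts above all WT hearts under quantile normalization, median scaling or no scaling, where 6.80%, 4.19% and 2.51% of all probes did.

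**Figure D4:**
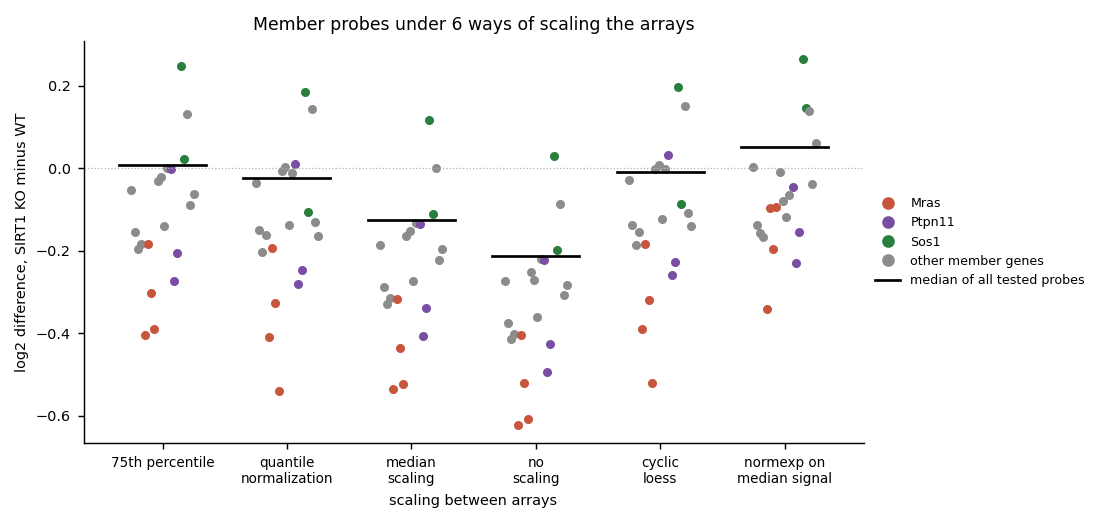
Fitted difference in log2 signal, SIRT1 KO minus WT (vertical axis), of the 20 member probes under 6 ways of scaling or background correction (horizontal axis). The black line is the median of all tested probes, which moves from 0.01 with the 75th percentile to -0.21 without scaling. The Mras probes (red) lie under that line and Sos1 A_51_P125792 (upper green) above it in all 6.

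The other genes of Ras signaling were read on the brightest probe of each, from a list of 92 genes of which 77 were tested. Of the rest, 9 had no probe that passed the filter on dim probes and 6 had no probe under their name. Of these, 1 passed the test as higher and none as lower, against 3.69% higher and 0.897% lower of the 13594 genes tested in this way. The direction of these calls depended on the scaling. Quantile normalization and cyclic loess each called 1 gene lower, *Fntb*, and 0 higher, where 1.30% and 1.16% of all genes read this way were called lower and 2.51% and 2.82% higher. Median scaling called 4 lower and 0 higher, against 4.92% and 2.43% of all genes. No scaling called 20 lower and 1 higher, against 24.8% and 2.32%, and normexp 3 lower and 4 higher, against 2.16% and 6.67%. At an unadjusted p under 0.05 there were 16 of the 77, near the 21.5% of all tested probes. Of the 77, 36 were above 0 and 41 below, with a median of -0.01.

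The gene that passed was *Rasgrp4*, a diacylglycerol-regulated Ras exchange factor known from mast cells. It read -5.44, -5.93, -5.47 and -5.30 in WT hearts and -4.93, -4.87, -4.58 and -3.95 in SIRT1 KO hearts. All SIRT1 KO hearts were higher, but the probe was dim and passed the filter through the SIRT1 KO hearts, being well above background in all 4 of them and in 2 of 4 WT hearts. The fitted difference was 0.95 ± 0.22 (SE, limma adjusted p = 0.0460), and with normexp background correction it was 0.45 (adjusted p = 0.00879). It missed the threshold in 12 of 20 alternatives, with differences of 0.73 to 1.07 in those. For the other tested exchange factors of this kind the values were 0.55 ± 0.20 for *Rasgrp2*, 0.27 ± 0.25 for *Rasgrp1* and 0.20 ± 0.07 for *Rasgrp3*, none past the threshold. *Rasgrp1*, *Rasgrp2* and *Rasgrp4* were read on dim probes, that of *Rasgrp1* well above background in 2 of 4 WT hearts, and of the dimmest probes on the array 36.4% were below 0. Summed scaled signal of 5 macrophage and leukocyte markers ran from 1.54 to 2.19 in WT and from 1.51 to 2.65 in SIRT1 KO hearts, and its part in these values was not tested.

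Upstream of Ras, none of the 5 tested receptor adaptors passed the test, and *Grb2*, the adaptor that brings Sos to receptors, was at 0.14 ± 0.08 (SE) and the docking protein *Frs2* at 0.10 ± 0.07. None of 7 GTPase-activating proteins, which switch Ras off, passed. *Rasa3* was at -0.22 ± 0.08 and *Rasal2* at 0.25 ± 0.09. Among the 8 genes that lipid-modify Ras or carry it to membranes, none passed, 5 were below 0, and both subunits of farnesyltransferase were among the lowest. *Fntb*, its beta subunit, read -2.18, -2.29, -2.13 and -2.33 in WT hearts and -2.49, -2.45, -2.58 and -2.53 in SIRT1 KO hearts. These ranges did not overlap, with a difference of -0.28 ± 0.07 (limma adjusted p = 0.0661). *Fnta*, its alpha subunit, was at -0.24 ± 0.10 (adjusted p = 0.222).

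Downstream, none of the 3 catalytic subunits of protein phosphatase 1, the partners of Shoc2 and Mras, passed. *Ppp1cb*, the subunit best known from the Shoc2 complex, was at -0.25 ± 0.09 (limma adjusted p = 0.176, fitted without WT replicate 4, whose spot was marked as an outlier) and *Ppp1cc* at 0.08 ± 0.09. None of 5 Raf kinases and scaffolds passed, with *Araf* at 0.14 ± 0.08 and *Lamtor3*, a scaffold for MEK, at -0.13 ± 0.07. None of the MEK and ERK kinase genes passed, with *Map2k1* (MEK1) at -0.19 ± 0.09. Of the 10 other Ras effectors none passed. *Rgl3*, an exchange factor for Ral, read -3.53, -3.87, -3.76 and -3.56 in WT hearts and -3.46, -3.31, -3.19 and -3.23 in SIRT1 KO hearts, with all SIRT1 KO hearts higher and a difference of 0.38 ± 0.10 (limma adjusted p = 0.0702). *Rala*, the Ral GTPase itself, was at -0.33 ± 0.10 (adjusted p = 0.114).

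Feedback inhibitors and transcripts induced by ERK reflect the output of the pathway in many tissues. None of the 9 tested feedback inhibitors passed the test. *Spry4*, a Sprouty inhibitor, was at 0.75 ± 0.24 (SE, limma adjusted p = 0.116) on a dim probe that was well above background in 3 of 4 WT hearts, and *Cbl*, a ubiquitin ligase for receptors, was at -0.29 ± 0.12. None of the 7 tested ERK target genes passed, with *Phlda1* at -0.23 ± 0.09 and *Etv4* at -0.15 ± 0.09. Among 15 tested related small GTPases none passed, and their values ran from -0.20 to 0.29, with *Rasl10b* at 0.29 ± 0.13 and *Rasd1* at -0.19 ± 0.09.

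**Figure D5:**
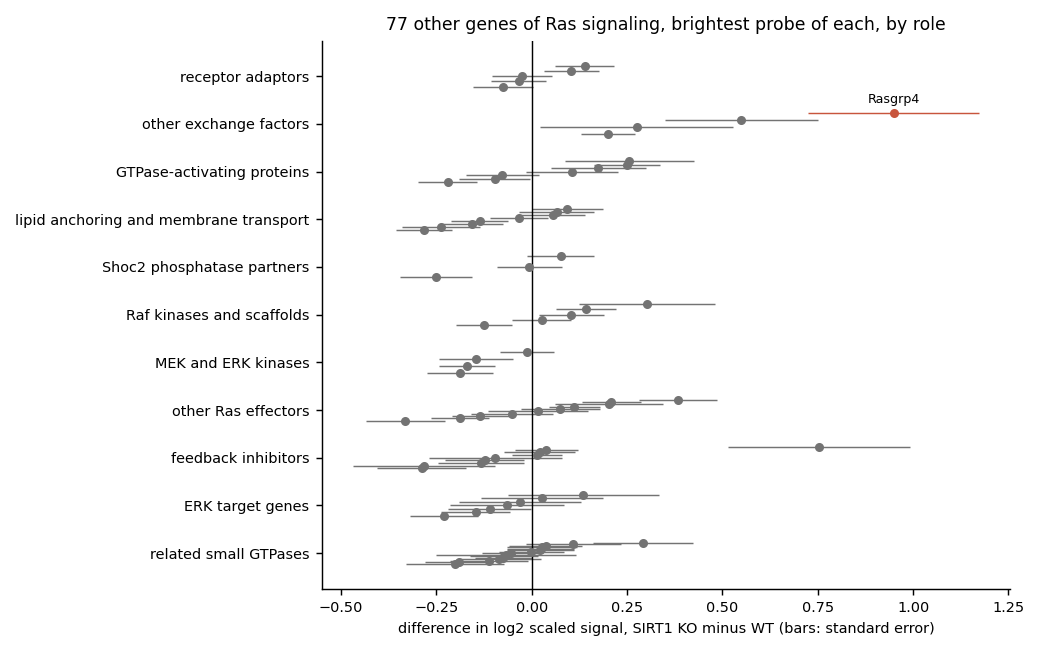
Difference in log2 scaled signal, SIRT1 KO minus WT (horizontal axis), for the 77 tested genes of Ras signaling outside the 9 members, grouped by role (vertical axis), with standard errors as bars. Rasgrp4 (red, 0.95) is the only gene past an adjusted p of 0.05.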

How the data were processed

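The authors hybridised Cy3-labelled cRNA from 500 ng of total RNA of each heart to Agilent whole-genome mouse arrays. They deposited spot intensities as written by Agilent Feature Extraction, background-subtracted and unscaled. Its version is 12 in the submitters' processing notes, while the study's methods name an earlier one. They also deposited a series table of intensities equal to the same signal in 100% of spots (within a relative tolerance of 1e-06). The study's test was an analysis of variance with Benjamini-Hochberg correction, whose factors are not given in the sources used here.

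Processed signals were put on the log2 scale here and each array was centred on its 75th percentile over non-control spots. Spots with an outlier mark were dropped, and replicate spots were averaged per probe. Through accessions, 28223 of 41174 probes (68.5%) received a RefSeq name of GRCm38.p6. A probe entered the test if at least 4 arrays held it well above background, which 25615 did. The test was limma 3.58.1 under R 4.3.3, with genotype as its only term, default eBayes settings and Benjamini-Hochberg adjustment at 0.05. Exact two-sided permutation tests went through every split of the hearts into groups of the same sizes, with numpy 2.4.6. The limma and analysis of variance fits were also run on simulated arrays, with an outcome that is not given here. The number of arrays limits the precision.

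Every member probe is named. Of the pathway list, the genes past the threshold and, in each role, the 2 with the smallest p are named. For the member whose brightest probe had the smallest p, the 5 genes most correlated with it are named, as are the *Sirt1* probes. A gene that this rule would name is not reported here. *Rasgrp1* and *Rasgrp2* were added after their values were seen. Members, lists and rules were chosen with earlier results of these data known. The marker lists covered cardiomyocyte (6 of 6 genes well above background on all arrays), endothelial (6 of 6), fibroblast and epicardial (6 of 6), smooth muscle (4 of 4), macrophage and leukocyte (5 of 5), erythroid (4 of 6, *Hbb-bh1* on no array), liver (4 of 5) and lung (0 of 4, *Sftpb* and *Nkx2-1* on no array) genes. In these lists 1 erythroid gene passed the test as higher and no other gene passed. Alternatives covered scaling, background, filter, test, probe choice and each heart left out. A planned normexp correction on mean signals was not run, because the scanner files used here give median and not mean spot signals, and normexp (offset 50) on the median signal was added after seeing the data.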

Additional observations from a re-analysis of the deposited data

Results flagged for a closer look

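Within the 39 groups of 4 hearts formed by a member probe and a genotype, 4 had 1 heart far from the other 3 by Dixon's test, where chance gives about 1 in 20 groups. *Nras* A_52_P649296 in WT replicate 1 read 0.178 on the log2 scaled signal, and the next heart 0.345. *Rras* A_52_P635182 in SIRT1 KO replicate 4 read 2.70, and the next heart 2.99. *Rras2* A_51_P112912 in SIRT1 KO replicate 4 read 3.60, and the next heart 4.00. *Ptpn11* A_52_P641185 in SIRT1 KO replicate 2 read 0.364, and the next heart 0.479.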

How the results depend on the processing

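With the main settings 0 member probes, 1 other pathway gene and 1250 probes in all passed the threshold. For member probes, quantile normalization, cyclic loess and eBayes with trend and robust settings each gave 1 (*Mras* in each, where the last called 5.65% of all probes, 383 of them lower), median scaling 3 and no scaling 10. Every other setting with a count for them gave 0, and the methods' ANOVA, which called 0, put 6 of the 20 and 20.1% of all probes under an unadjusted p of 0.05. For all probes the count was 1904 with median scaling, 6352 without scaling, 2566 with normexp on the median signal, 546 with the methods' ANOVA and 2131 with array weights. Higher probes made up 81.4% of the calls in the main settings, 10.1% when left unscaled, 35.5% with median scaling, 63.9% with quantile normalization and 70.4% with cyclic loess. For pathway genes the count was 4 with median scaling, 21 without scaling, 7 with normexp, 3 with array weights, 2 with the mean of all probes of a gene, and 0 with the filter on all 8 arrays, with no filter and with the ANOVA. Leaving out 1 heart at a time gave 0 member probes each time, 657 (without WT replicate 3) to 1825 (without SIRT1 KO replicate 3) probes in all, and 0 to 1 pathway genes. The cause of these changes was not tested.

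The sign turned for 8 member probes, all with main differences nearer 0 than 0.14 and none past the threshold. *Nras* A_52_P566348 was 0.0036 with normexp. *Rras* was 0.032 with array weights. *Rras2* A_51_P112912 was 0.0042 with quantile normalization, 0.0079 with loess and 0.064 with array weights. *Rras2* A_52_P462625 was -0.011 with quantile normalization, -0.13 with median scaling, -0.22 without scaling, -0.0012 with loess and -0.064 with normexp. *Ptpn11* A_51_P173622 was 0.011 with quantile normalization, 0.032 with loess and 0.0093 with array weights. *Sos1* A_52_P341339 was -0.11 with quantile normalization and with median scaling, -0.20 without scaling, -0.086 with loess and -0.042 with array weights. *Sos2* was -1.8e-06 with median scaling and -0.087 without scaling, the settings that lower all probes together, and stayed above 0 in every other one. *Shoc2* A_51_P185941 was 0.062 with normexp. With 1 heart left out the differences ran from -0.085 to 0.049 (*Rras*), -0.085 to 0.087 and -0.063 to 0.085 (the *Rras2* probes), -0.024 to 0.016 (*Ptpn11*), -0.13 to 0.13 (*Sos1*) and -0.16 to 0.013 (*Shoc2*). The *Rasgrp4* call was lost in 12 of its 20 alternatives.

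With the replicate number as a replicate block, 0 member probes, 1 pathway gene and 1185 probes in all passed, and *Rras2* A_51_P112912 turned to 0.087. Deviations of same-numbered hearts correlated by 0.20, 0.21, 0.056 and 0.14, each the highest for its WT heart and for its SIRT1 KO heart. The series' design text speaks of 4 pairs of hearts without saying what the pairs share or that the numbers mark them. The number was not taken to pair the hearts, because 1 value is under 0.1, but this cut cannot show that the hearts were unpaired. The exact permutation tests treat all hearts as unpaired.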
